A study of Mus musculus with 6 samples.

Results

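The genes described here encode the subunits of the BAF chromatin remodelling complexes, the mammalian form of SWI/SNF, together with relatives that share their gene symbols. They were taken by symbol from the platform annotation: Pbrm1, Brd7, Brd9, Ss18, Phf10, Actl6a and Actl6b, and every symbol that starts with Smarc, with Arid, or with Dpf and a digit. This gave 32 of the 18193 genes named by the array. The brightest probe set of a gene, by its mean over the 6 arrays, stands for it, and 30 of the 32 lay above the filter on dim signals, a log2 signal of 5.90. The label holds for 22 of the 32, which encode BAF subunits. The other 10 are 4 ATPases of the SNF2 family that work outside BAF (Smarca1, Smarca5, Smarcad1 and Smarcal1) and 6 genes with an ARID DNA-binding domain that are not BAF subunits (Arid3a, Arid3b, Arid4a, Arid4b, Arid5a and Arid5b).

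BAF complexes use ATP to slide or evict nucleosomes and so open or close regulatory DNA to transcription factors. A catalytic ATPase, either Brg1 or Brm, sits on a shared scaffold, and further subunits decide whether the assembly is canonical BAF, polybromo BAF or non-canonical BAF. Several positions can be filled by either of a pair or family of paralogs, and the choice differs between cell types. In the mouse heart, Brg1 (Smarca4), Baf60c (Smarcd3) and Baf180 (Pbrm1) are each known to be needed for normal development.

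The study measured total RNA of mouse embryonic hearts at E12.5, strain C57BL/6, on Affymetrix 3' expression arrays, with 3 arrays labelled wildtype and 3 labelled Rhau KO. Dhx36, which the labels call Rhau, encodes a helicase that unwinds G-quadruplexes of RNA and DNA. The series text describes the Rhau KO group as hearts of Rhau-deletion mice and the wildtype group as hearts of control mice. The deleted part of the gene, the driver of the deletion and any allele of the controls are not stated in the labels. The numbers of hearts and RNA samples in the series text read as 1 heart per array.

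The targeted gene ran against the labels. The log2 signal of the brightest Dhx36 probe set read 8.99, 8.88 and 8.71 in wildtype-labelled replicates 1 to 3, but 10.10, 10.48 and 10.23 in Rhau KO-labelled ones, a difference of 1.41 (SE 0.108, limma, adjusted p = 1.46e-05), and its other probe sets were higher by 1.10 and 0.90. Every direction below is therefore that of the labels as deposited, in the arrays labelled Rhau KO against those labelled wildtype. The arrays also differed in sex-linked signal. The mean linear signal of Uty, Kdm5d and Eif2s3y, all on the Y chromosome, came to 1.23, 2.04 and 39.3% of the highest array in the wildtype group, and to 59.6, 82.8 and 100% in the Rhau KO group. Wildtype replicate 3 and Rhau KO replicates 1 and 2 carried Xist as well as Y-linked signal, and are called the 3 mixed arrays below. RNA of a single heart would not be expected to carry both, so these arrays are at odds with 1 heart per array, and what a replicate and its SE stand for is not settled. Arrays have no read depth, and precision is limited by their number and by how bright a gene is. Nothing beyond the count of hearts says that the samples of a label were independent, and p-values measure the spread between them. Medians of the log2 signal were 6.68, 6.69 and 6.74 in wildtype-labelled arrays and 6.75, 6.80 and 6.78 in Rhau KO-labelled ones. Every array labelled Rhau KO thus had a higher median than every wildtype array.

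BAF subunit genes changed in both directions and by small amounts. Of the 30 tested genes of the module, 4 were higher in the arrays labelled Rhau KO (Smarcc1, Dpf2, Smarca2 and Smarce1), 5 were lower (Smarcd3, Pbrm1, Ss18, Phf10 and Arid1a) and 21 did not pass the threshold of adjusted p under 0.05 in limma's test, adjusted over 12416 genes. The 9 called genes were 30% of the module, where 19.0% of all tested genes were called. By direction, 13.3% of the module was higher, against 8.20% of all genes, and 16.7% was lower, against 10.8%. Module genes were brighter than the other genes, with a median log2 signal of 10.58 against 9.27 over all tested genes. They also had a smaller median SE, 0.069 against 0.097. Among genes above the 60% filter, 9 of 27 module genes (33.3%) and 23.8% of all genes were called. The called changes lay between 1.12-fold and 1.28-fold. The median difference of the module was 0.07, beside 0.01 over all genes, and the median size of the difference was 0.16, beside 0.15.

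With each array centred on its median, which moves the median difference of all genes from 0.01 to -0.06, the module had 0 higher and 6 lower genes (1 and 6 at an unadjusted p under 0.05). Over all genes that setting called 4.28% higher and 14.9% lower. All 9 called genes were BAF subunits. The 20 tested subunits had 4 higher, 5 lower and 11 without a call. The 10 relatives outside BAF had 0 calls in limma's test, where 19.0% of all tested genes were called. An unadjusted p under 0.05 was found for 3 of these relatives. Over all 12416 tested genes, 1966 higher and 2083 lower ones had such a p. A difference between subunits and relatives was not tested.

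**Figure D1:**
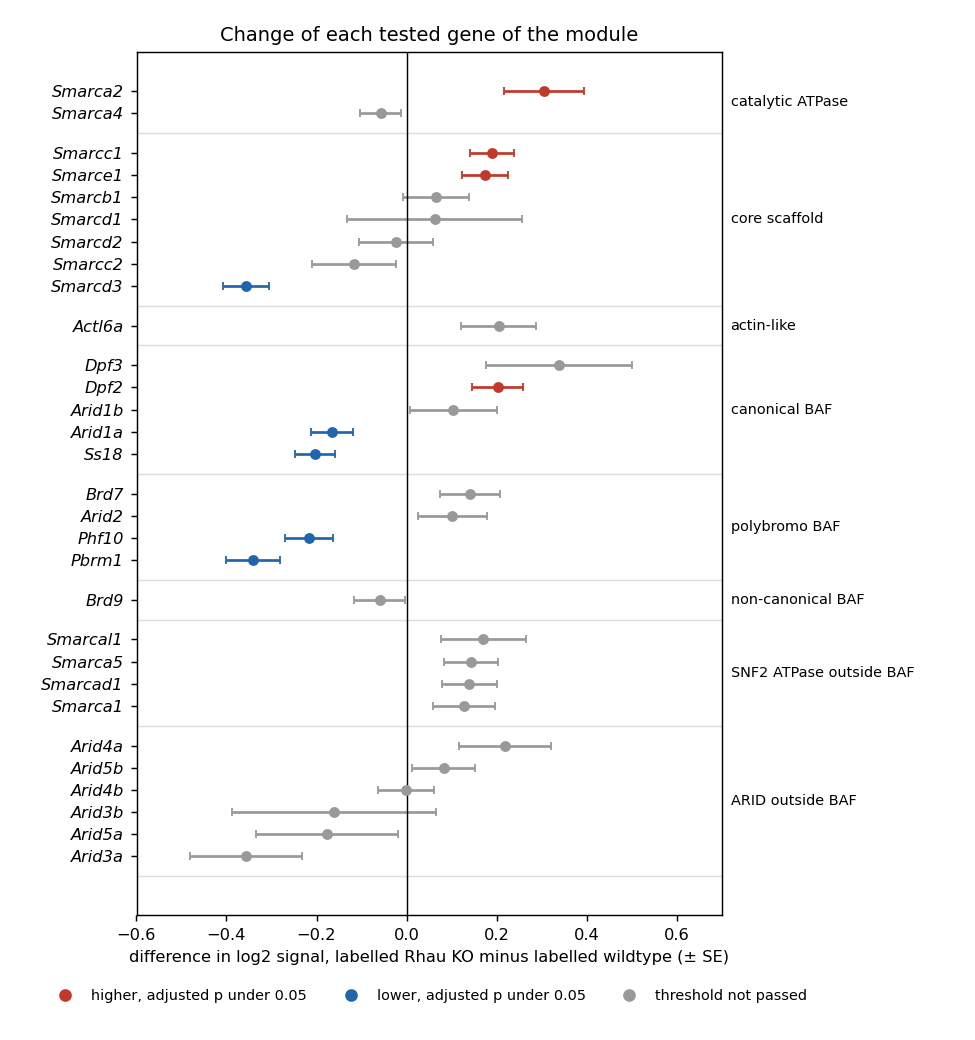
Difference in log2 signal (labelled Rhau KO minus labelled wildtype, 3 arrays each, bars ± SE) of the 30 tested genes, grouped by their role. The 4 higher (red) and 5 lower (blue) genes with adjusted p under 0.05 are all BAF subunits, and their differences lie between -0.36 and 0.31.

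In all 9 called genes the arrays of the labels did not overlap. Over the module, 14 of 30 genes (46.7%) had groups that did not overlap, 7 in each direction, where 37.1% of all tested genes had such groups. The 5 without a call were Smarca4, Brd9, Dpf3, Smarcad1 and Arid4a.

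Among the catalytic subunits, Smarca2 rose. Smarca2 encodes Brm, the ATPase that can take the place of Brg1. Its log2 signal was 9.87, 9.97 and 10.16 in wildtype-labelled arrays and 10.28, 10.43 and 10.20 in Rhau KO-labelled ones. The highest wildtype array and the lowest array labelled Rhau KO, both replicate 3, were only just apart. The levels differed by 0.31 (SE 0.089), or 1.24-fold, and limma's adjusted p was 0.0354. A second, much dimmer Smarca2 probe set differed by 0.39 (SE 0.205) without a call.

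Smarca4, which encodes Brg1, was among the brighter genes of the module, at 11.95, 11.91 and 11.88 in wildtype-labelled arrays and 11.86, 11.84 and 11.87 in Rhau KO-labelled ones. The difference was -0.06 (SE 0.046, limma, adjusted p = 0.427). Its other probe set, dimmer at a mean of 9.98 against 11.88, gave 9.86, 9.89 and 9.74 against 10.23, 10.11 and 10.04, a difference of 0.30 with adjusted p = 0.0256 when every probe set was tested on its own. The Smarca4 probe sets therefore did not give the same result, and the transcript ends that they read are not given in the files used here.

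The scaffold that holds the ATPase showed one clear decrease. Smarcd3 encodes Baf60c, the heart-enriched member of the Baf60 family, known in mouse as a partner that links BAF to cardiac transcription factors such as Tbx5, Gata4 and Nkx2-5. Its log2 signal was 11.68, 11.59 and 11.64 in wildtype-labelled arrays and 11.33, 11.24 and 11.27 in Rhau KO-labelled ones. Every array labelled Rhau KO lay below every wildtype array. The difference of -0.36 (SE 0.051) was a 1.28-fold lower level with limma's adjusted p = 9.45e-04, the smallest adjusted p of the module. A single probe set measured this gene, so no second one could be compared.

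The stretch of 250 bases before the RefSeq start of Smarcd3 is shown because it belongs to the gene with the smallest adjusted p, and a 250-base stretch of the same kind is given for Pbrm1 and Phf10 below. It lies at chr5:24602003-24602252 of GRCm38.p6 on the minus strand, and the capitals mark the letters TTATC, the reverse-strand reading of GATAA, the core motif of GATA factors.
Smarcd3: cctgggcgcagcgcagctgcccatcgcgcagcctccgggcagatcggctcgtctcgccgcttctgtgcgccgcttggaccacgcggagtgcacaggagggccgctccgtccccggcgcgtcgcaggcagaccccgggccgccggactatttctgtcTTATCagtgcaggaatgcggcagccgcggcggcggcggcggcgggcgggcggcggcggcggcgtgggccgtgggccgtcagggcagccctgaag
Motifs were chosen after the values were seen and searched on both strands. GATAA was found in 22.6% of 32851 RefSeq windows, each the 250 bases before a start, and in 5 of the 31 windows (16.1%) of module genes. The T-box letters GGTGTG were found in 16.3% of all windows and in 4 of the 31 module windows, and not in the Smarcd3 window. A match is only a run of letters and shows no binding. Windows were matched for 27 of the 32 genes, not for Ss18, Smarce1, Arid2, Arid3a and Arid4a.

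The other members of the Baf60 family did not pass. Smarcd1 (Baf60a), a dim gene at a mean of 7.28, differed by 0.06 (SE 0.195), and Smarcd2 (Baf60b) differed by -0.02 (SE 0.082), with overlapping groups in both. Within each array, the log2 ratio of Smarcd3 to Smarcd2 was 1.30, 1.14 and 0.99 in wildtype-labelled arrays and 0.83, 0.89 and 0.71 in Rhau KO-labelled ones. That ratio changed by -0.33 (SE 0.105), with an exact two-sided permutation p of 0.10, the smallest that 3 against 3 arrays allow. The ratio of Smarcd3 to Smarcd1 likewise changed by -0.42 (SE 0.237) without overlap, while that of Smarcd2 to Smarcd1 changed by -0.09 (SE 0.210) with overlap.

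Smarcc1 rose. It encodes Baf155, one of the paired scaffold proteins that stabilise the complex. Its signal was 11.38, 11.39 and 11.35 in wildtype-labelled arrays and 11.59, 11.52 and 11.59 in Rhau KO-labelled ones, with the groups well apart. The difference was 0.19 (SE 0.049, 1.14-fold, limma's adjusted p = 0.0213). A second bright probe set gave a larger difference, 0.42 with adjusted p = 7.76e-04 when each was tested on its own, and another, dimmer one gave 0.48 without a call. All probe sets of Smarcc1 above the filter had groups that did not overlap.

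Its paralog Smarcc2 (Baf170) differed by -0.12 (SE 0.093, limma, adjusted p = 0.426) on the only probe set. The log2 ratio of Smarcc1 to Smarcc2 changed by 0.31 (SE 0.108, exact p = 0.10, no overlap). For the ATPases, the ratio of Smarca2 to Smarca4 changed by 0.36 (SE 0.130, exact p = 0.10, no overlap). The other Smarca4 probe set was higher by 0.30, about as much as Smarca2 at 0.31, so that change rests on the brightest Smarca4 probe set. The ratios of Arid1a to Arid1b and of Dpf2 to Dpf3 changed by -0.27 (SE 0.139, exact p = 0.20) and -0.14 (SE 0.115, exact p = 0.50), with overlap. These 7 ratios were picked after the values were seen, use the brightest probe set of each gene, and have adjusted p of 0.175 or more, which this design could not bring below the threshold.

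Smarce1, which encodes the HMG-box subunit Baf57, had the smallest difference of the higher genes. Its signal was 11.04, 11.06 and 11.09 in wildtype-labelled arrays and 11.18, 11.25 and 11.27 in Rhau KO-labelled ones, a difference of 0.17 (SE 0.051, limma's adjusted p = 0.0384). The call was lost when every probe set was tested on its own (adjusted p = 0.0535), and a second probe set of nearly the same brightness, 11.10 against 11.15, differed by 0.08 (SE 0.080) with overlapping groups. The mean of all its probe sets, which includes one below the filter, differed by 0.62 (adjusted p = 0.104). Smarcb1 (Baf47, also called Snf5), a core subunit shared by the canonical and polybromo forms, differed by 0.07 (SE 0.073) without a call. Another Smarcb1 probe set, of a type marked by the manufacturer as possibly matching other transcripts, was higher by 0.90 with adjusted p = 0.00139. It was at 7.71, 7.69 and 7.47 in wildtype-labelled arrays against 8.35, 8.63 and 8.58 in Rhau KO-labelled ones. The brightest probe set did not show that difference.

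Actl6a encodes Baf53a, the actin-like subunit of dividing progenitor cells. It was at 10.90, 10.93 and 10.93 in wildtype-labelled arrays and at 11.16, 11.30 and 10.92 in Rhau KO-labelled ones. Replicates 1 and 2 labelled Rhau KO lay above all wildtype arrays and replicate 3 among them. The difference of 0.20 (SE 0.084) did not pass (limma, adjusted p = 0.117). Actl6b, its counterpart in mature neurons, was below the filter on all 6 arrays, at 2.94 to 5.74, and was not tested.

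**Figure D2:**
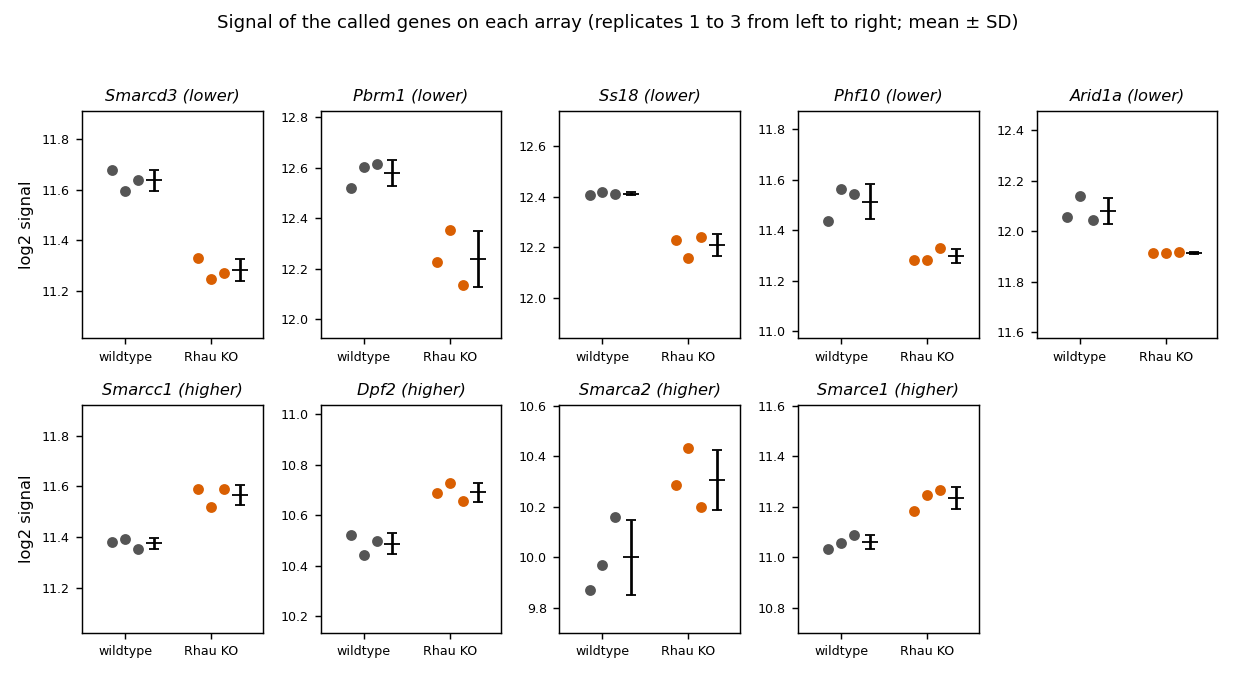
Log2 signal of the 9 called genes on each array, wildtype label in grey and Rhau KO label in orange, 3 arrays each, with mean ± SD beside the points. Every panel spans the same 0.9 log2 units. The groups do not overlap in any panel, and Smarca2 has the narrowest gap between them, 10.16 against 10.20.

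Subunits of canonical BAF moved apart. Arid1a encodes Baf250a, the large DNA-binding subunit that defines canonical BAF. Arid1a signals of 12.06, 12.14 and 12.04 in wildtype-labelled arrays faced 11.91, 11.91 and 11.92 in Rhau KO-labelled ones. The difference of -0.17 (SE 0.047, limma's adjusted p = 0.0333) was the smallest among the called genes, at 1.12-fold, with an SD of 0.0034 over the 3 arrays labelled Rhau KO. The other Arid1a probe set differed by -0.12 (SE 0.105) without a call. Arid1b, the alternative to Arid1a, differed by 0.10 (SE 0.097) without a call and with overlapping groups.

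Ss18, a subunit of canonical and non-canonical BAF known from its fusion genes in synovial sarcoma in humans, was lower. It was at 12.41, 12.42 and 12.41 in wildtype-labelled arrays and at 12.23, 12.16 and 12.24 in Rhau KO-labelled ones, a difference of -0.20 (SE 0.045, limma's adjusted p = 0.0110). The dimmer Ss18 probe sets differed by -0.06 (SE 0.130) and 0.24 (SE 0.210) without a call, and the mean of all Ss18 probe sets differed by -0.0054 (adjusted p = 0.972).

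Dpf2 (Baf45d), the broadly expressed histone-reading PHD-finger subunit, was higher. Its signal was 10.52, 10.44 and 10.50 against 10.69, 10.73 and 10.66, a difference of 0.20 (SE 0.056, limma's adjusted p = 0.0303). The second Dpf2 probe set differed by 0.30 (SE 0.126) without a call and also had groups that did not overlap. Dpf3 (Baf45c), the family member known for muscle and heart expression, was dim, at 6.90 to 7.15 in wildtype-labelled arrays and 7.24 to 7.48 in Rhau KO-labelled ones. Its difference of 0.34 (SE 0.163) was larger than that of Dpf2 but did not pass (limma, adjusted p = 0.178). The other Dpf3 probe set, dimmer still, differed by 0.05 (SE 0.506) with overlapping groups. Dpf1, the neuronal member, was below the filter with a mean of 5.81 and was not tested. It was at 5.91, 6.13 and 6.64 in wildtype-labelled arrays and at 5.02, 5.39 and 5.73 in Rhau KO-labelled ones.

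In polybromo BAF, the defining subunit fell on every probe set. Pbrm1 encodes Baf180, a protein with many bromodomains that read acetylated histones. It was the brightest gene of the module, at 12.52, 12.60 and 12.61 in wildtype-labelled arrays and 12.23, 12.35 and 12.14 in Rhau KO-labelled ones. The highest array labelled Rhau KO, replicate 2, lay below the lowest wildtype array. The difference of -0.34 (SE 0.060) was a 1.27-fold lower level, with limma's adjusted p = 0.00309. The other Pbrm1 probe sets differed by -0.42 and -0.28, with adjusted p = 0.00359 and 0.0305 when each was tested on its own, and their groups did not overlap either.

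The 250 bases before the Pbrm1 start lie at chr14:31018888-31019137 of GRCm38.p6 on the plus strand. Capitals mark AAGTG, the core letters of the Nkx2-5 motif, found in 40.7% of all windows and in 11 of the 31 module windows (35.5%).
Pbrm1: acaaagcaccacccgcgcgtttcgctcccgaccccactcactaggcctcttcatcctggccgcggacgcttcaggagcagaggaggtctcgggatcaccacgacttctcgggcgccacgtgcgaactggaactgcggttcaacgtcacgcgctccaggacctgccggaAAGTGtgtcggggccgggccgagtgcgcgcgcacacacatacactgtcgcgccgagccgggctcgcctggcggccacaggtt
This window held neither GATAA nor GGTGTG.

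Phf10 (Baf45a), the PHD-finger subunit of polybromo BAF, gave opposite results on its probe sets. On the brightest it was at 11.43, 11.56 and 11.54 in wildtype-labelled arrays and at 11.28, 11.28 and 11.33 in Rhau KO-labelled ones, a difference of -0.22 (SE 0.053, limma's adjusted p = 0.0179). On the other it was at 9.59, 9.59 and 9.56 against 9.87, 9.84 and 9.75, a difference of 0.24 with adjusted p = 0.0471 when each was tested on its own. Neither pair of groups overlapped, so the arrays do not settle a direction for this gene, and the mean of both probe sets differed by 0.01.

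The upstream stretch of Phf10 is shown because Dhx36 acts on G-quadruplexes and Phf10 is a called gene whose window holds their sequence pattern. It lies at chr17:14961261-14961510 of GRCm38.p6 on the minus strand. Capitals mark a G-quadruplex pattern, defined as 4 runs of at least 3 G with 1 to 7 bases between them, on either strand.
Phf10: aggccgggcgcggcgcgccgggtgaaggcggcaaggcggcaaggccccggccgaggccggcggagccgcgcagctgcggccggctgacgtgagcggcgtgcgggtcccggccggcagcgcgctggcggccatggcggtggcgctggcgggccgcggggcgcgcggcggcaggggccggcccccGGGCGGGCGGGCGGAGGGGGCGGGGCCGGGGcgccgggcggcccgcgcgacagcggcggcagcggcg
The pattern was present in 16.7% of all windows and in 8 of the 31 module windows (25.8%). Among the 8 windows of the called genes it was present in 2, those of Phf10 and of one of the Arid1a starts.

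Arid2 (Baf200), the ARID subunit of polybromo BAF, differed by 0.10 (SE 0.077), and Brd7, its bromodomain subunit, by 0.14 (SE 0.067). Neither passed, and the groups overlapped on these brightest probe sets. A dimmer probe set of each, at 0.22 for Arid2 and 0.58 for Brd7, had groups that did not overlap, without a call. The remaining Arid2 probe sets, at -0.03 and 0.13, had overlapping groups. Brd9, the bromodomain subunit that marks non-canonical BAF, was at 10.34, 10.32 and 10.36 in wildtype-labelled arrays and at 10.26, 10.31 and 10.28 in Rhau KO-labelled ones. Its difference of -0.06 (SE 0.057) was small and did not pass, although the arrays of the labels were just apart.

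**Figure D3:**
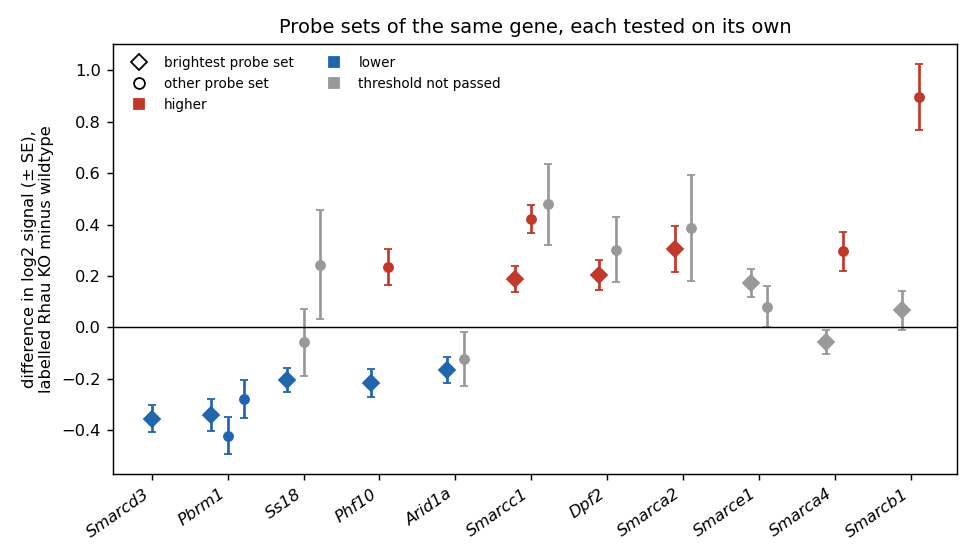
Difference in log2 signal (labelled Rhau KO minus labelled wildtype, bars ± SE, 3 arrays each) of every probe set above the filter for the 9 called genes and for Smarca4 and Smarcb1, each tested on its own. Diamonds are the brightest probe sets and circles the others; Pbrm1 is lower on all of its probe sets, whereas those of Phf10 point in opposite directions, at -0.22 and 0.24.

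Over the module, 77 probe sets named these genes and 63 lay above the filter. Tested singly, 16 of the 63 (25.4%) were called, 9 higher and 7 lower, where 14.6% of all 22796 single-gene probe sets were called. The called genes had 11 further probe sets above the filter. By sign alone, 9 of these pointed the same way as the brightest probe set, 3 passed in the same direction and 1, of Phf10, passed in the opposite one. Probe sets called only outside the brightest were one each of Smarca4, Smarcb1, Actl6a (0.39) and Arid4b (0.56), all higher. That of Actl6a, like that of Smarcb1, is of the type marked as possibly matching other transcripts.

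The SNF2-family ATPases outside BAF lay close together, between 0.13 and 0.17, without a call. Smarca5 (Snf2h), the main ISWI ATPase, was at 11.49, 11.37 and 11.37 against 11.59, 11.46 and 11.61. Its difference of 0.14 (SE 0.060) had limma's adjusted p = 0.122. The X-linked ISWI gene Smarca1 (Snf2l) differed by 0.13 (SE 0.068), the helicase-like remodeller gene Smarcad1 by 0.14 (SE 0.061), and Smarcal1, an annealing helicase of stalled replication forks, by 0.17 (SE 0.095). All 4 had positive differences, but none passed.

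The ARID genes outside BAF were spread from -0.36 to 0.22 on their brightest probe sets, without a call. Arid3a, a transcription factor known from B cells and early embryos, had a difference as large as that of Smarcd3 but a wider spread, at 9.69, 9.37 and 9.69 in wildtype-labelled arrays and 9.20, 9.01 and 9.47 in Rhau KO-labelled ones. Its groups overlapped, and the difference of -0.36 (SE 0.125) had limma's adjusted p = 0.0716. Arid4a and Arid4b, partners of the Sin3 corepressor, differed by 0.22 and -0.0012, and the arrays of Arid4a did not overlap. The dimmer Arid4b probe sets above the filter differed by 0.38, 0.30, 0.56 and -0.08. Of these, only that at 0.56 passed in limma's test of every probe set on its own (adjusted p = 0.0484). The groups did not overlap for those at 0.30 and 0.56. Arid3b, Arid5a and Arid5b differed by -0.16, -0.18 and 0.08.

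Subunits of BAF outside the symbol rule were read from a further list. Of 9 tested genes, Bcl11a and Bcl11b, zinc-finger proteins that join BAF in neural and blood cells, rose by 0.58 and 0.58 (SE 0.085 and 0.131, limma's adjusted p = 0.00115 and 0.0122), and 7 did not pass: Bicral (0.32), Bicra (0.30), Ss18l1 (0.19), Bcl7c (-0.0052), Actb (-0.05), Bcl7b (-0.11) and Bcl7a (-0.16). The list had a median of 0.19, beside 0.01 over all genes. In the same arrays 3 of 8 tested neuronal and neural crest markers were higher (Ednrb, Elavl4 and Gap43), and the summed log2 signal of that list was 11.69 to 11.74 in wildtype-labelled arrays and 12.28 to 12.36 in Rhau KO-labelled ones. Most of that rise was Ednrb, at 11.04 against 11.82 on average: without it the sum was 10.27 to 10.36 against 10.52 to 10.57. The other 5 did not pass, and Tubb3 stood at -0.38. The part of these markers in the change of the Bcl11 genes was not tested. Among 10 tested ISWI partners, Baz1a fell by 0.35 (SE 0.068, limma's adjusted p = 0.00591) and 9 did not pass, with a list median of 0.05.

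Cardiac transcription factors that work with BAF were lower in part. Of 7 tested, Nkx2-5 (-1.29), Srf (-0.42), Tbx5 (-0.37) and Tbx20 (-0.31) fell, with limma's adjusted p of 0.0345 for Tbx5 and less for the others, and Gata4 (-0.21), Hand2 (-0.05) and Mef2c (0.12) did not pass. The list median was -0.31. Of 11 genes listed as dependent on Brg1, Baf60c or Baf180 in the mouse heart, Cdkn1c, a cell-cycle inhibitor gene, rose by 0.49, and Adamts1, a matrix protease gene, by 0.31. Hey2, a Notch-responsive repressor gene, changed by -1.32 and the myosin heavy chain gene Myh6 by -0.35, both lower with a call. The other 7, among them Myh7 (0.16), Nppa (0.03) and Bmp10 (-0.26), did not pass. The list gives no direction of dependence for its genes, so its median of 0.16 is no measure of BAF activity. Of 23 tested Polycomb genes, known antagonists of BAF, Rnf2 rose by 0.24, Ezh2 fell by 0.45, Pcgf5 fell by 0.76 and 20 did not pass (list median 0.07).

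The samples carried the markers of heart muscle: all 8 cardiomyocyte genes were tested, with means between 11.87 and 15.08. Of these, Myl7, Myh6 and Ryr2 fell and 5 did not pass, with a median of -0.14, and the summed log2 signal was 17.69 to 17.76 in wildtype-labelled arrays and 17.47 to 17.68 in Rhau KO-labelled ones. Without Myh6 those ranges overlapped, at 17.46 to 17.51 against 17.26 to 17.48. The decrease of Smarcd3, a gene enriched in heart muscle, at -0.36, stood beside this shift. In RNA of whole hearts, fewer cells of a type and less RNA per cell cannot be told apart. Erythroid markers had 8 of 11 lower (median -0.99, summed signal 16.58 to 16.68 against 16.18 to 16.49), endothelial markers 6 of 10 higher (median 0.27, 13.57 to 13.67 against 13.78 to 13.91) and macrophage markers 2 of 8 higher (median 0.29, 11.25 to 11.32 against 11.73 to 12.02). The macrophage sum rested on Lyz2, at 7.32 against 10.30 on average. Without Lyz2 its ranges overlapped, at 11.14 to 11.23 against 11.15 to 11.46, and Csf1r (0.04), Adgre1 (0.18) and Cd68 (0.24) did not pass. Of the genes listed for skeletal muscle, the 3 tested, Tnnt3, Tnni2 and Acta1, were lower (median -1.13, 14.43 to 14.52 against 13.16 to 13.46). The muscle regulators Myod1, Myog, Myf5 and Myf6 were below the filter, so these values do not show that skeletal muscle cells were present. Proliferation genes were mixed, with Mcm2 and Top2a higher and Mki67 lower of 5, fibroblast genes had Dcn higher and Pdgfrb lower of 6, and none of 6 epicardial genes passed. The part of these markers in the changes of the BAF genes was not tested.

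Calls differed in how far they depended on single arrays. Smarcd3, Pbrm1 and Ss18 kept their call when any of the 6 arrays was left out. Their differences then ran from -0.38 to -0.33 for Smarcd3, from -0.40 to -0.29 for Pbrm1 and from -0.22 to -0.18 for Ss18. Phf10 kept it in 3 of those 6 fits, Smarca2 in 2, Smarcc1, Dpf2 and Smarce1 in 1 each and Arid1a in 0, and the module then had 0 to 3 higher and 3 to 5 lower genes. Without wildtype replicate 1 or 2 it had 0 higher genes (5 and 6 at an unadjusted p under 0.05), and without wildtype replicate 3, Rhau KO replicate 1 or Rhau KO replicate 2 it had 1. Without wildtype replicate 3 or Rhau KO replicate 1 it had 3 lower genes.

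When the fit carried each array's Y-linked signal as a covariate, 0 module genes were called (limma, 0 higher and 5 lower at an unadjusted p under 0.05), and 46 higher and 132 lower genes were called over the whole array. In that limma fit Smarcd3 stood at -0.31 (SE 0.116, adjusted p = 0.261) and Pbrm1 at -0.33 (SE 0.139, adjusted p = 0.302). Smarca2 stood at 0.13 (SE 0.193) and Smarce1 at 0.07 (SE 0.111). Every wildtype-labelled array had less Y-linked signal than every array labelled Rhau KO, so this fit separates label and sex-linked signal poorly. The SEs of all 4 genes were wider than without the covariate, so these values do not sort the genes by their dependence on sex-linked signal. Within the 3 mixed arrays the wildtype label keeps 1 array, whose variation is assumed to be like that of the others. There Smarcd3 was at -0.35 and Pbrm1 at -0.32, and only Arid3a was called, lower. Without the 3 mixed arrays, 2 wildtype arrays with Xist and little Y-linked signal faced 1 array labelled Rhau KO with the highest Y-linked signal and the lowest Xist, so label and sex-linked signal cannot be told apart there. The spread came from the wildtype pair alone and the lone array was assumed to vary like it, so these calls say nothing of stability: Smarcd3 and Pbrm1 were the 2 genes called, both lower, and 0 were higher (4 at an unadjusted p under 0.05).

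**Figure D4:**
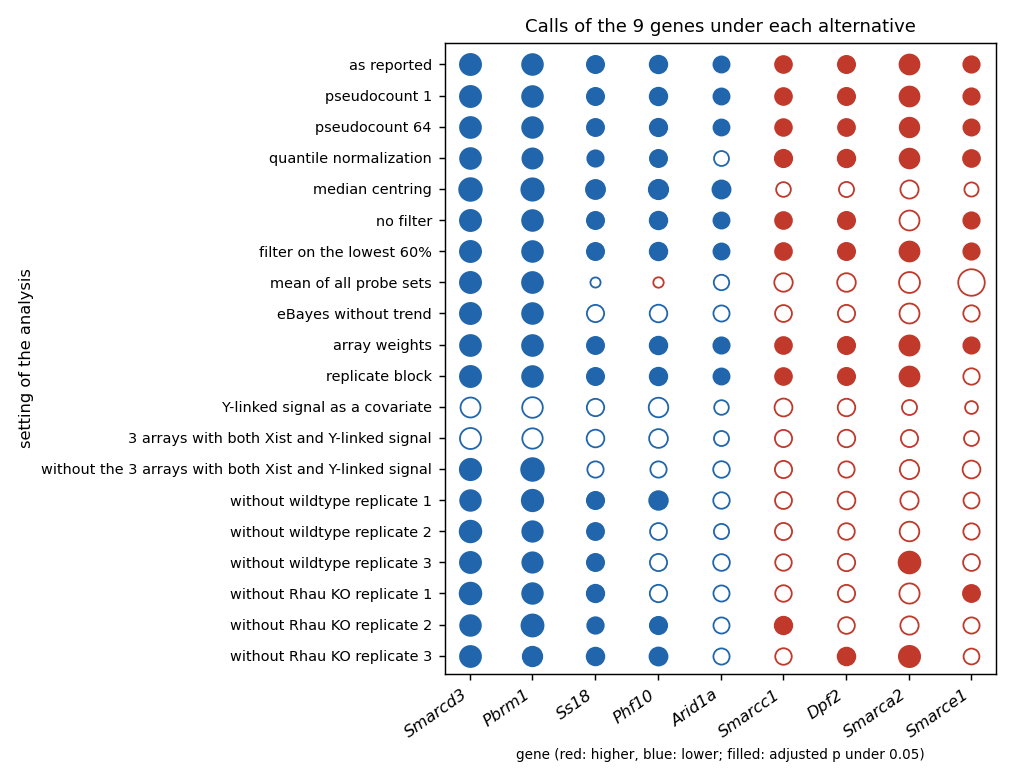
Calls of the 9 genes (columns) with the analysis as reported and under each of its alternatives (rows). Red circles are higher and blue circles lower in the arrays labelled Rhau KO, filled where adjusted p was under 0.05, and larger where the difference was larger. Smarcd3 and Pbrm1 are open only with the Y-linked covariate and in the 3 mixed arrays.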

How the data were processed

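Biotin-labelled RNA of mouse embryonic hearts went onto 6 Affymetrix 3' arrays, one for each sample. The authors' table, as deposited, gives log2 signals of 45101 probe sets. MAS5 is named in the submitters' processing notes, with no version. The linear 2% trimmed mean was 500.0 on each array, so arrays had been scaled globally. Values were used as deposited. All 6 columns were matched to samples by accession.

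After removal of 64 control probe sets, 34945 probe sets named 1 gene by the platform annotation, 932 several and 9160 none. Each of 18193 genes was represented by its brightest probe set; the lowest 40% of probe sets by mean were left out, leaving 12416 genes. limma 3.58.1 in R 4.3.3 (lmFit, eBayes with trend) compared the labels, two-sided, with p-values adjusted by Benjamini-Hochberg and called under 0.05. Differences are log2, labelled Rhau KO minus labelled wildtype. Ratios of paralogs used an exact permutation test over arrays. The fit was tested on simulated data, where 59.7% of 1.5-fold changes were recovered. Smaller changes, such as those called in the module, were not simulated, so genes without a call are not shown to be unchanged. Alternatives changed the pseudocount, scaling, filter, probe set rule, variance model, covariates and arrays used.

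The module, lists and alternatives were chosen with earlier results of these data known. By the rule for named genes, every member is named, called members are given per array, and up to 4 called genes are named in each other list. Genes without a call in those lists were named after their values were seen. Promoter sequences are RefSeq's, GRCm38.p6. Python 3.11.15, pandas 2.3.3, scipy 1.17.1 and matplotlib 3.10.9 were used.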

Additional observations from a re-analysis of the deposited data

How the results depend on the processing

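Under pseudocounts of 1 and 64, array weights, the filter on the lowest 60% and the replicate block, the module's counts stayed within 1.5 times those reported, as they did with quantile normalization (4 higher, 4 lower) and no filter (3 and 5). The higher count of 4 moved to 0 with median centring, eBayes without trend, the Y-linked covariate, the 3 mixed arrays (those with Xist and with Y-linked signal), and without these (1, 5, 0, 1 and 4 at an unadjusted p under 0.05). It was 1 with the mean of all probe sets and 9 of 63 with every probe set. The lower count of 5 moved to 2 with the mean of all probe sets, 2 with eBayes without trend, 0 with the Y-linked covariate (5 at an unadjusted p under 0.05), 1 in the 3 mixed arrays and 2 without them. Leaving out 1 array gave 0 to 3 higher and 3 to 5 lower. Phf10 reversed to 0.0105 with the mean of its probe sets, which have opposite signs. The cause of the other moves was not tested.

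Over all genes, 1018 higher became 532 with median centring, 588 with averaged probe sets, 1550 of 22796 with every probe set, 614 without trend, 46 with the Y-linked covariate, 298 in the 3 mixed arrays and 377 without them, and 590 to 802 when 1 array was left out. The 1336 lower became 806 with averaged probe sets, 878 without trend, 132 with the covariate, 448 in the 3 mixed arrays and 779 without them, and 916 to 1206 with 1 array left out. In the further lists, 5 higher genes became 16 probe sets with every probe set, 1 with the covariate and 3 in the 3 mixed arrays; 9 lower became 2 and 5. Dhx36 stayed higher with a call in every alternative.

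Replicate numbers did not pair the arrays: residuals of equal numbers correlated at -0.0118, 0.0446 and 0.0131 over genes. With the number as a block the module had 3 higher and 6 lower genes, Smarce1 losing its call (0.17, adjusted p = 0.0503) and Arid3a gaining one. Fitting without the mixed arrays was chosen after the data were seen. Signals near the filter have no detection calls here.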
